A study of Mus musculus with 7 samples.

Results

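The peaks described here lie in and around the mouse Ugt1a and Ugt2b gene clusters, which encode UDP-glucuronosyltransferases. The members were chosen through 10 genes, called the listed genes below, which were Ugt1a1, Ugt1a2, Ugt1a5 and Ugt1a9 on chromosome 1 and Ugt2b1, Ugt2b5, Ugt2b34, Ugt2b36, Ugt2b37 and Ugt2b38 on chromosome 5. For each cluster the span of its listed genes in the mm9 annotation was extended by 100 kb on either side, and every peak overlapping the resulting window was taken. The Ugt1a window was chr1:89867375-90215572 and the Ugt2b window chr5:87218792-87953228. Together they held 84 peaks of 137323 in the 2 deposited lists, namely 36 of 68667 CTCF peaks and 48 of 68656 Rad21 peaks. The windows were set from the annotation, and the listed genes were chosen with earlier results of these data known.

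The data came from ChIP-seq on liver of female CD-1 mice of strain Crl:CD1(ICR), aged 8 weeks, with 4 libraries for CTCF and 3 for Rad21, a subunit of cohesin, and no treatment in the labels. Each antibody's libraries were pooled by the authors before peaks were called on mm9, so both lists have no value per mouse, no spread between replicates can be given, and no comparison with another sex, strain or treatment was made. Male samples were not analysed here. Liver is a mixture of cell types and the labels give no sorting, so the cell type behind a peak is not known. The CTCF and Rad21 lists come from different antibodies and different pools of libraries, and their fold enrichments are set side by side without a test.

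Glucuronosyltransferases attach glucuronic acid, taken from UDP-glucuronic acid, to bilirubin, steroids, bile acids, drugs and other lipophilic compounds, which can then be excreted in bile and urine. The Ugt1a genes are unusual in that each has its own start and first exon but all share the last exons, so a set of nested transcripts ends at one place, and Ugt1a1 is the enzyme that conjugates bilirubin. The Ugt2b genes are separate complete genes that arose by repeated duplication. CTCF is a DNA-binding protein with a long directional motif, and cohesin stops where CTCF sits, often at loop anchors. A pileup is the number of fragments over the summit, and the fold enrichment compares it with the local background. A CTCF peak sharing at least 1 bp with a Rad21 peak is called cohesin-and-CTCF (CAC) here, a CTCF peak without one Lone CTCF, and a Rad21 peak without a CTCF peak cohesin-non-CTCF (CNC).

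The sequences of the main CTCF sites are given first because several of them are near copies of each other. A 20-base matrix learned from 1000 strong CTCF peaks had the consensus TGGCCACCAGGGGGCGCTAG, and a score of 14.5 bits or more, reached by 1% of background windows, was called a motif. Each line holds 60 bases of mm9, read 5′ to 3′ on the strand of the motif, with the 20 motif bases in capitals. The first pair lies upstream of Ugt2b5 and Ugt2b38, and these sites held the highest CTCF and the highest Rad21 fold enrichment of the Ugt2b window.
Upstream of Ugt2b5, chr5:87572309-87572368, minus strand: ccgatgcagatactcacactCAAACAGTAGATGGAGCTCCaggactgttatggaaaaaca
Upstream of Ugt2b38, chr5:87865503-87865562, minus strand: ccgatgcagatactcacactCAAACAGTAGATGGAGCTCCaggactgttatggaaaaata
These sites lay 293 kb apart, held the same 20 motif bases and differed at 1 of 60 bases. Both scored 13.2 bits, below the threshold for a motif call.

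The next lines give 3 pairs of sites in the introns of the longer Ugt1a transcripts, downstream of the annotated starts of Ugt1a6b and Ugt1a6a, with the copy on the left of the map first.
Pair 1, first copy, chr1:90016971-90017030, plus strand: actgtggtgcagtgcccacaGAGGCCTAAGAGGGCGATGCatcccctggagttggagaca
Pair 1, second copy, chr1:90040702-90040761, plus strand: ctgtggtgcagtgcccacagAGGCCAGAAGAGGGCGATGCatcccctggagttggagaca
Pair 2, first copy, chr1:90017305-90017364, minus strand: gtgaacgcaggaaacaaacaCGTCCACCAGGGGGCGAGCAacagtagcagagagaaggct
Pair 2, second copy, chr1:90041036-90041095, minus strand: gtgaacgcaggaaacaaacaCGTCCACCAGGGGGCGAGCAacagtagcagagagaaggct
Pair 3, first copy, chr1:90018259-90018318, plus strand: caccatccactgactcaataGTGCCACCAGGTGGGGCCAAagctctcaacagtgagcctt
Pair 3, second copy, chr1:90041992-90042051, plus strand: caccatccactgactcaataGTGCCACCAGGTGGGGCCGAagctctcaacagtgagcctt
All 3 pairs were separated by 23.7 kb. Pair 2 was identical over 60 bases, pair 3 differed by A19G, counted from the 5′ end of the motif, and pair 1 differed by 3 edits, that is bases inserted, deleted or replaced between the printed runs.

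The remaining lines show the other CTCF sites on which the text turns, namely those at the start of Ugt1a5 and inside Ugt1a1, and the other CAC sites that passed the motif threshold.
Start of Ugt1a5, chr1:90062502-90062561, minus strand: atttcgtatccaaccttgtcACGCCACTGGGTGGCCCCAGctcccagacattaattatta
Intron of Ugt1a1, chr1:90113884-90113943, minus strand: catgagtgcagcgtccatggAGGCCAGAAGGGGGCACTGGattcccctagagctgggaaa
Intron of Trpm8, chr1:90186662-90186721, plus strand: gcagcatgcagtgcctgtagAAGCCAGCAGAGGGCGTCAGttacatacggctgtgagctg
Between Ythdc1 and Ugt2b34, chr5:87279286-87279345, plus strand: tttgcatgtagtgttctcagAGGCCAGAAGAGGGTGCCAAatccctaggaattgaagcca
Between Ugt2b37 and Ugt2a3, chr5:87740629-87740688, minus strand: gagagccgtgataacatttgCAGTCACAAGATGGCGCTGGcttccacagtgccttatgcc
Intron of Ugt2a3, chr5:87762787-87762846, minus strand: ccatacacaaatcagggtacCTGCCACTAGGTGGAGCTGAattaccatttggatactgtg
The sequence in the Ugt1a1 intron scored highest, at 22.9 bits, and the one at the start of Ugt1a5 lowest of these, at 12.7 bits.

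The Ugt1a window, of 348 kb, held 16 CTCF and 23 Rad21 peaks, or 46.0 and 66.1 per Mb. The Ugt2b window, of 734 kb, held 20 CTCF and 25 Rad21 peaks, or 27.2 and 34.0 per Mb. Over the autosomes and the X chromosome both lists had 26.9 peaks per Mb. The 3 other clusters of liver genes, treated in the same way, had fewer CTCF peaks per Mb than either Ugt window, with 12.3 for Cyp2c, 9.82 for Cyp3a and 20 for Slco1. Positions that began a 32-base sequence occurring once in mm9 made up 59.9%, 50.5% and 81.5% of these windows, against 78.0% of the Ugt1a and 73.4% of the Ugt2b window, and the part of this in the densities was not tested.

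In the Ugt1a window 8 of 16 CTCF peaks were CAC, or 50% (Wilson 95% interval 28 to 72), and 8 were Lone CTCF. In the Ugt2b window 14 of 20 were CAC, or 70% (48.1 to 85.5). The share in the whole CTCF list was 73.7%. The windows differed by 20 percentage points, which was not significant by Fisher's exact test (two-sided p = 0.307, adjusted p = 0.307 over 3 shares). All intervals cover counting error only, and neighbouring peaks are not independent.

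Rad21 peaks without CTCF made up 15 of 23 in the Ugt1a window, or 65.2% (44.9 to 81.2), and 12 of 25 in the Ugt2b window, or 48% (30.0 to 66.5). In the whole Rad21 list CNC peaks were 26.4%. The Cyp2c, Cyp3a and Slco1 windows had CNC shares of 39.1%, 69.2% and 43.3%, so those of the Ugt windows were within the range of these clusters. The difference of 17.2 percentage points between the Ugt windows was not significant by Fisher's exact test (p = 0.259, adjusted p = 0.307). These CNC peaks had fold enrichments of 2.71 to 4.12, with a median of 3.43, in the Ugt1a window and of 2.99 to 6.39, with a median of 4.17, in the Ugt2b window, against a median of 3.48 for all CNC peaks. Of them 0 of 15 and 5 of 12 reached a −log10 q of 10, against 25.1% of all CNC peaks. Of the CAC Rad21 peaks 7 of 8 and 12 of 13 did, against 78.3% of all, so the order of the CNC shares turned. It also turned when CTCF peaks below this value were dropped too, by which 1 CAC Rad21 peak in each window lost its CTCF partner and counted as CNC.

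A CTCF motif lay within 100 bp of the summit of 6 of 16 CTCF peaks in the Ugt1a window and 4 of 20 in the Ugt2b window, or 37.5% and 20%, against 43.3% of the whole list. This difference was also not significant by Fisher's exact test (p = 0.285, adjusted p = 0.307). At the looser motif threshold, reached by 5% of background windows, 11 and 14 CTCF peaks had a motif, against 62.7% of the whole list, and the difference, Ugt1a minus Ugt2b, turned from 17.5 to -1.25 percentage points. At the first threshold, in the Ugt1a window 2 of the 8 CAC and 4 of the 8 Lone CTCF peaks had a motif, and in the Ugt2b window 3 of the 14 CAC and 1 of the 6 Lone CTCF peaks, against 44.7% of all CAC and 39.3% of all Lone CTCF peaks.

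Median fold enrichment of the CAC peaks was 7.5 for CTCF and 4.73 for Rad21 in the Ugt1a window, and 10.1 and 9.43 in the Ugt2b window, against 8.48 and 6.15 over all CAC peaks. No Rad21 peak of the Ugt1a window reached a fold enrichment of 10, while 5 of the 25 in the Ugt2b window did, or 20%, against 21.5% of the list. Across CAC peaks CTCF and Rad21 fold enrichments went together, with a Pearson correlation of the log2 values of 0.723 over 8 peaks of the Ugt1a window, 0.826 over 14 of the Ugt2b window and 0.776 over 50613 in the list. These points share the 2 pooled libraries and are given as a description.

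**Figure D1:**
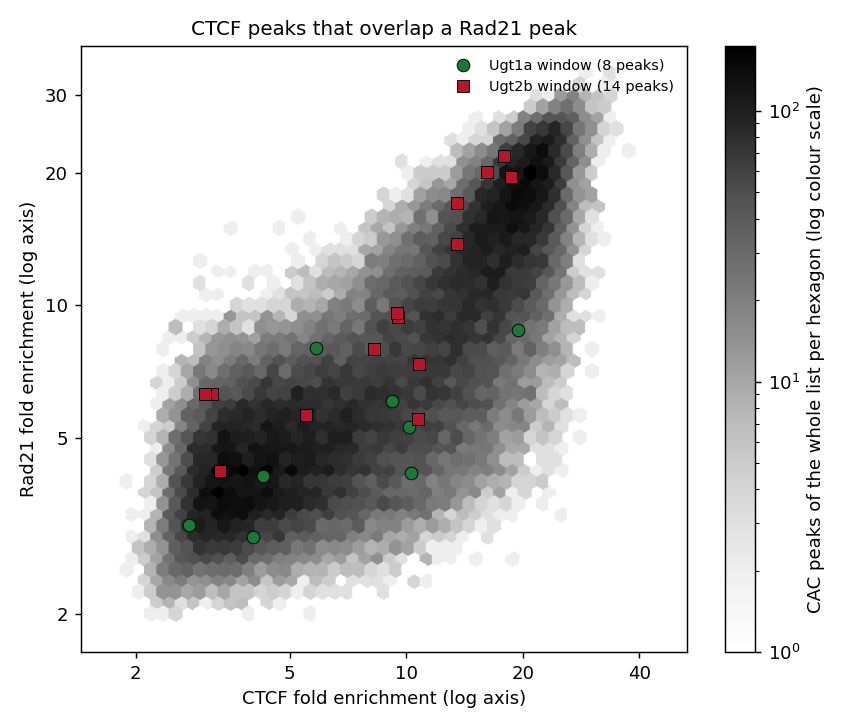
CTCF (x axis) and Rad21 (y axis) fold enrichment, both on log axes, of CTCF peaks that overlap a Rad21 peak. Grey hexagons count the 50613 CAC peaks of the whole list, green circles are the 8 of the Ugt1a window and red squares the 14 of the Ugt2b window, of which 5 lie above 10 for both proteins.

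In the Ugt1a cluster, CNC peaks lay over or within 2 kb of a start of Ugt1a9, Ugt1a8, Ugt1a7c, Ugt1a6a and Ugt1a6b, but not of Ugt1a10, the most upstream gene. The nearest CTCF peaks to these 5 genes were 5.58 to 49.5 kb from a start. On the left side the nearest CAC peak lay over the start of Usp40, which encodes a deubiquitinase (CTCF chr1:89904665-89905152, fold enrichment 5.84, and Rad21 8.01). No CTCF peak followed for 112 kb, a stretch that held the starts of Ugt1a10, Ugt1a9, Ugt1a8, Ugt1a7c, Ugt1a6a and Ugt1a6b. In this stretch 59.1% of positions began a 32-base sequence that occurs once in mm9, against 78.0% of the whole window. The authors kept uniquely mapped reads only, so sites in the other positions may have gone unseen, depending on read length.

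Ugt1a9 (chr1:89967375-90115572, plus strand) is the most upstream of the listed genes and encodes an enzyme of phenols and drugs. A CNC peak, chr1:89967224-89967581, covered its start, with a fold enrichment of 3.33 and a pileup of 30 fragments at the summit (exact Poisson 95% interval 20.2 to 42.8) over a local background of 8.31. A second CNC peak, at chr1:89969318-89969540, had a fold enrichment of 3.14. The nearest CTCF peak was 49.5 kb downstream.

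Ugt1a7c and the Ugt1a6 genes, of which the latter conjugate planar phenols, had the same kind of peak. The CNC peak over the start of Ugt1a7c, chr1:89991366-89991755, had a fold enrichment of 3.55, and another at chr1:89989015-89989278 had 3.37. Next to the annotated start shared by Ugt1a6a and Ugt1a6b, 94 bp upstream of it, lay chr1:89999450-89999733 with 3.46. Another CNC peak beside a second annotated start of Ugt1a6a, chr1:90031017-90031218, had 3.65. The sequences under these Ugt1a6 peaks were copies, with 87.6% identity over 201 aligned bases, of which 92.0% were unique at 32 bases. A further CNC peak downstream of the first of these starts, chr1:90000758-90001312, had 3.68 and its copy, 87.6% identical, carried no peak.

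Upstream of Ugt1a8, at chr1:89982164-89982398, a CNC peak with a fold enrichment of only 2.80 carried a CTCF motif of 17.4 bits although no CTCF peak was listed there. Its pileup was 20 fragments (12.2 to 30.9) and its −log10 q 3.27. The fold enrichment of this peak was higher than that of only 6.78% of the Rad21 list. Ugt1a10 had no peak of either list within 5 kb of a start.

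The first CTCF peaks of the cluster formed groups on the 2 copies of a duplicated intron segment, shown as the 3 pairs above. On the first copy all 3 sites had a peak. Site 1, chr1:90016861-90017094, was Lone CTCF with a fold enrichment of 5.77. Site 2, chr1:90017334-90017551, was CAC with 10.2 for CTCF and 5.31 for Rad21. Site 3, chr1:90018160-90018366, was Lone CTCF with 4.54.

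On the second copy site 1 was Lone CTCF with a fold enrichment of 7.15 (chr1:90040538-90040764) and site 3 Lone CTCF with 4.95 (chr1:90041954-90042202). Site 2 had no peak in either list there, although its 60 printed bases were identical and the aligned sequence 98.5% identical over 203 bases. Only 15.5% of positions within 100 bp of this motif were unique at 32 bases, and 14.5% in the first copy, which had the peak. Whether the second copy of site 2 is bound cannot be told from uniquely mapped reads. At site 1 the motif scored 18.9 bits in the second copy, with a pileup of 51 fragments (38.0 to 67.1), and the best window of the first copy at the same place scored 4.74 bits, with a pileup of 41 (29.4 to 55.6). These intervals overlap.

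Ugt1a5 (chr1:90062587-90115572, plus strand) was the only listed gene with a CTCF peak over its start. The CTCF peak chr1:90062349-90062789 had a fold enrichment of 9.17 and 96 fragments (77.8 to 117), and the Rad21 peak chr1:90062244-90062768 had 6.07 and 58 fragments (44.0 to 75.0). Their summits were 21 bp apart. A CNC peak with 3.54 lay in the first exon, at chr1:90062926-90063248. Copies of the CTCF site at 82.0% identity elsewhere in the window had no CTCF peak, and their best motif window scored 3.13 bits. These 2 copies were unique at 32 bases over 26.5% and 28.1% of their positions, against 98.4% of the aligned sequence at Ugt1a5, and the part of unique mapping in the missing peaks was not tested.

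Between Ugt1a5 and Ugt1a2 the peaks were weak. A CAC pair at chr1:90076133-90076385 had 4.26 for CTCF and 4.11 for Rad21, with summits 235 bp apart. Lone CTCF at chr1:90077446-90077642 had 2.87, and CNC peaks at chr1:90074917-90075225 and chr1:90081503-90081725 had 3.43 and 2.71. The peaks nearest to Ugt1a2 (chr1:90097176-90115572) were a CAC pair upstream, with 2.75 for CTCF at 4.55 kb and 3.18 for Rad21 at 4.51 kb, the lowest CTCF value of the window.

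Ugt1a1 (chr1:90108534-90115572), the bilirubin enzyme, had no peak of either list within 5 kb of its start, and no Rad21 peak was called in chr1:90092668-90166338, a stretch of 73.7 kb in which 95% of positions were unique. Lone CTCF peaks lay at 2 places within it. The one at chr1:90102675-90102871, near the start of the cochaperone gene Dnajb3, had 3.45. The other lay in a Ugt1a1 intron 5.38 kb downstream of the start, at chr1:90113760-90114103, and held the highest motif score of the windows. Its pileup was 195 fragments (169 to 224), more than in any other CTCF peak inside the span of the listed Ugt1a genes. Its fold enrichment, 6.81, was taken over a local background of 27.8. The Rad21 background is known only at Rad21 peaks. It was 7.8 at the peak on the left of the stretch and 21.4 at the one on the right. The part of the background in the missing Rad21 peaks was not tested.

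Local backgrounds were also high at the next 2 CAC peaks to the right, in both lists. The first, in an intron of Hjurp, which encodes a chaperone of the centromeric histone, had fold enrichments of 4.03 and 2.98 over backgrounds of 22.3 for CTCF and 21.4 for Rad21. The CAC peak in a Trpm8 intron, chr1:90186510-90186873, had 531 CTCF fragments (487 to 578) over 50.4 and 168 Rad21 fragments (144 to 195) over 39.7. Its fold enrichments were 10.3 and 4.16. The 99th percentile of the background was 38.4 in the CTCF list and 28.7 in the Rad21 list, and the medians were 9.14 and 7.96. At the far edge of the window a CAC peak at chr1:90214993-90215540, also in Trpm8, had the highest CTCF fold enrichment, 19.5, over a background of 11, and 8.78 for Rad21 over one of 5.83. The part of the local background in these values was not tested.

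**Figure D2:**
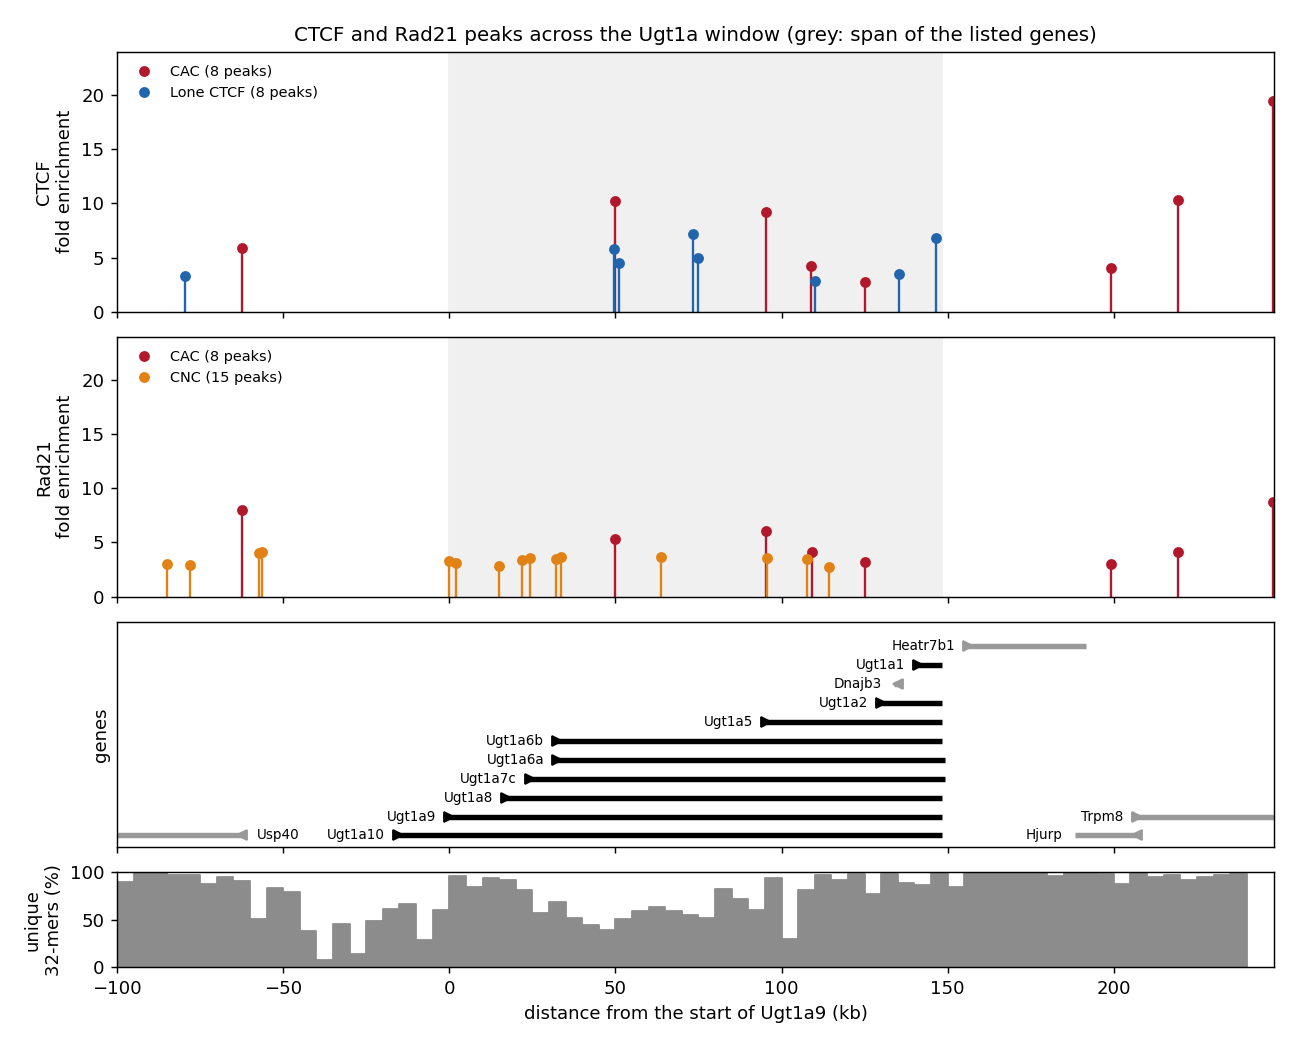
Peaks of the Ugt1a window by distance from the start of Ugt1a9 in kb. Stems give the fold enrichment at each CTCF (top) and Rad21 (second) summit, coloured by class, with genes (arrowheads at starts) and the percent of unique 32-base sequences in bins below. Orange CNC stems of 2.80 to 3.68 lie in the first 49.5 kb, where no CTCF peak was called. No Rad21 peak was called at the Ugt1a1 end.

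**Figure D3:**
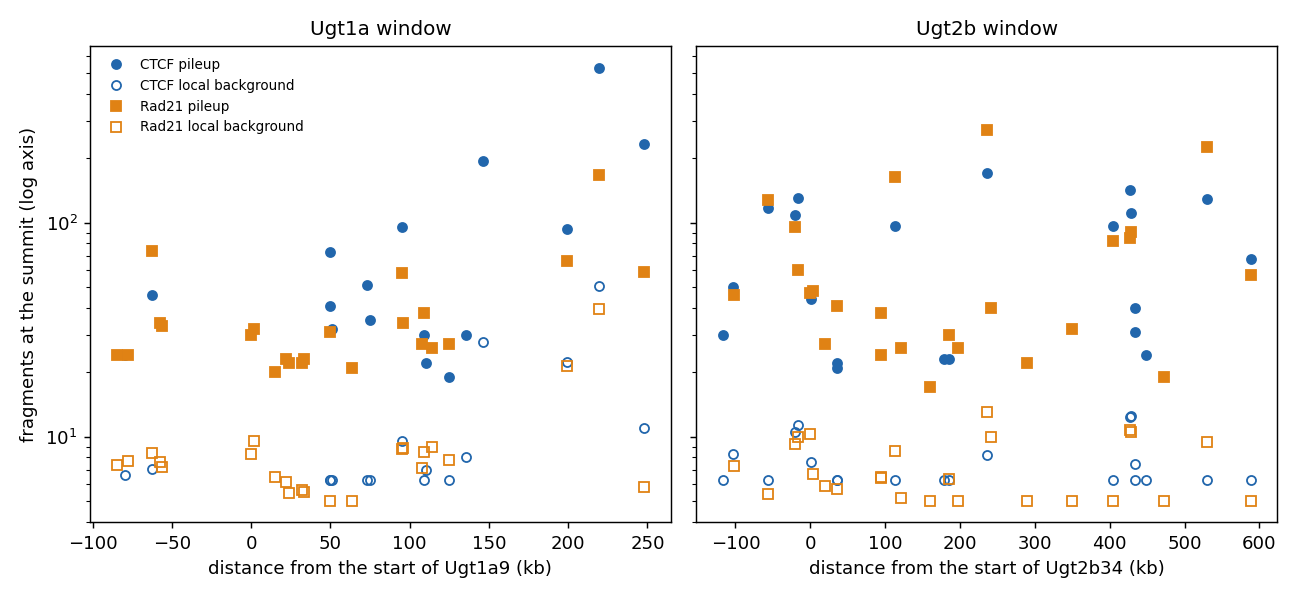
Fragments at each summit (filled) and the local background (open), on a log axis, for CTCF (blue circles) and Rad21 (orange squares), by distance in kb from the start of Ugt1a9 (left) or Ugt2b34 (right). Background at the right of the Ugt1a window reaches 50.4 for CTCF and 39.7 for Rad21, and in the Ugt2b window it stays at or below 13.

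In the Ugt2b window 7 of the 20 CTCF peaks had a fold enrichment of 10 or more, or 35%, against 33.3% of the list and 3 of 16 in the Ugt1a window. All 7 were CAC, of which 5 lay between genes, 1 in Ugt2b34 and 1 in Ugt2a3. Of the 12 CNC peaks 6 had their summit within 5 kb of a protein-coding start, against 21.9% of all CNC peaks. The other 6 lay 7.84 to 56.2 kb away. Within 1 kb of a start the share was 33.3% in this and in the Ugt1a window, against 12.8% of all CNC peaks. On the left side of the Ugt2b window a CAC peak over the start of Ythdc1 had 5.50 for CTCF and 5.65 for Rad21. Ythdc1 encodes a reader of methylated adenosine in RNA. Lone CTCF with a motif at chr5:87219054-87219279 had 4.26. A strong CAC peak at chr5:87279133-87279544 had 16.2 for CTCF and 20.1 for Rad21, with a motif of 16.9 bits. The CAC peak next to the listed span, chr5:87315663-87316057, had 9.53 and 9.43.

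Ugt2b34 (chr5:87318792-87335962, minus strand) was bracketed by peaks. A CAC peak lay in the annotated UTR at its far end, with 10.7 for CTCF and 5.52 for Rad21. A CNC peak, chr5:87335720-87336150, covered its start with 4.26, and Lone CTCF with 5.19 lay 504 bp upstream of the start. The strongest CNC peak of both windows, chr5:87339888-87340265, was 4.12 kb upstream with a fold enrichment of 6.39 and a pileup of 48 (35.4 to 63.6), higher than 64.0% of the Rad21 list.

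Ugt2b1 (chr5:87345663-87355555) had a CNC peak over its start, chr5:87354956-87355800, with 4.08, and the nearest CTCF was 15.4 kb upstream. There 1 Rad21 peak, with 6.29, overlapped 2 weak CTCF peaks with 3.16 and 3.02. Ugt2b35, the only gene of the cluster on the plus strand, had a CNC peak over its start with 5.23 and another in its coding exon with 3.37. A CAC peak 18.8 kb downstream of that start, chr5:87448695-87449038, had 13.5 for CTCF and 17.1 for Rad21, and a CNC peak with 4.38 lay beyond it.

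Ugt2b36 (chr5:87494952-87521580) had a Rad21 peak over its start, chr5:87521002-87522078, with 4.21. It counted as CAC because it overlapped a CTCF peak with 3.30, but the summits were 329 bp apart and the best motif window of the CTCF peak scored 5.09 bits. Lone CTCF in an intron of the gene had the same value of 3.30, and a CNC peak in an intron had 2.99. A further CNC peak 11.3 kb upstream, at chr5:87532802-87533029, had 4.48.

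Ugt2b5 (chr5:87553981-87569365) and Ugt2b38 (chr5:87838967-87853228) each had the strong CAC site whose sequences head the list above. Upstream of Ugt2b5, 2.7 kb from the start, CTCF had a fold enrichment of 18.7 with 171 fragments (146 to 199) and Rad21 19.5 with 272 fragments (241 to 306). Upstream of Ugt2b38, 11.9 kb from the start, CTCF had 17.9 with 129 fragments (108 to 153) and Rad21 21.8 with 226 (197 to 257). The Rad21 peaks were higher than 95.1% and 97.3% of their list. The sequence around the CTCF summits was 90.6% identical over 203 aligned bases. Neither gene had a peak over its start.

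Ugt2b37 (chr5:87669518-87683829) lay in the longest stretch without CTCF of either window, 168 kb at chr5:87572588-87740454, of which 61.9% was unique at 32 bases. Rad21 was called inside this stretch without CTCF, with 5.47 at chr5:87684998-87685301, 1.32 kb upstream of the start of Ugt2b37 by its summit. The other CNC peaks of the stretch had 3.73 and 3.82. At its right end a CAC peak with a motif had 13.5 for CTCF and 13.8 for Rad21.

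Ugt2a3, which conjugates bile acids, held a pair of CAC peaks in its introns, with 10.8 and 8.28 for CTCF and 7.35 and 7.98 for Rad21. The first had a motif of 19 bits. Lone CTCF peaks with 3.80 and 5.63 lay just upstream of the gene and another, with 3.44, lay 17.5 kb upstream. The sequence around the latter had 9 copies in the window, at 78.1% to 90.5% identity, with best motif windows of 7.61 to 15.7 bits and no CTCF peak at any of them. Between 13.2% and 70.8% of their positions were unique at 32 bases, against 27.4% under the peak itself. Between Ugt2a3 and Ugt2b38 there was a CNC peak with 3.32. On the right side Ugt2a1, known from olfactory tissue, had a CAC peak 4.03 kb upstream with 9.48 and 9.62.

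**Figure D4:**
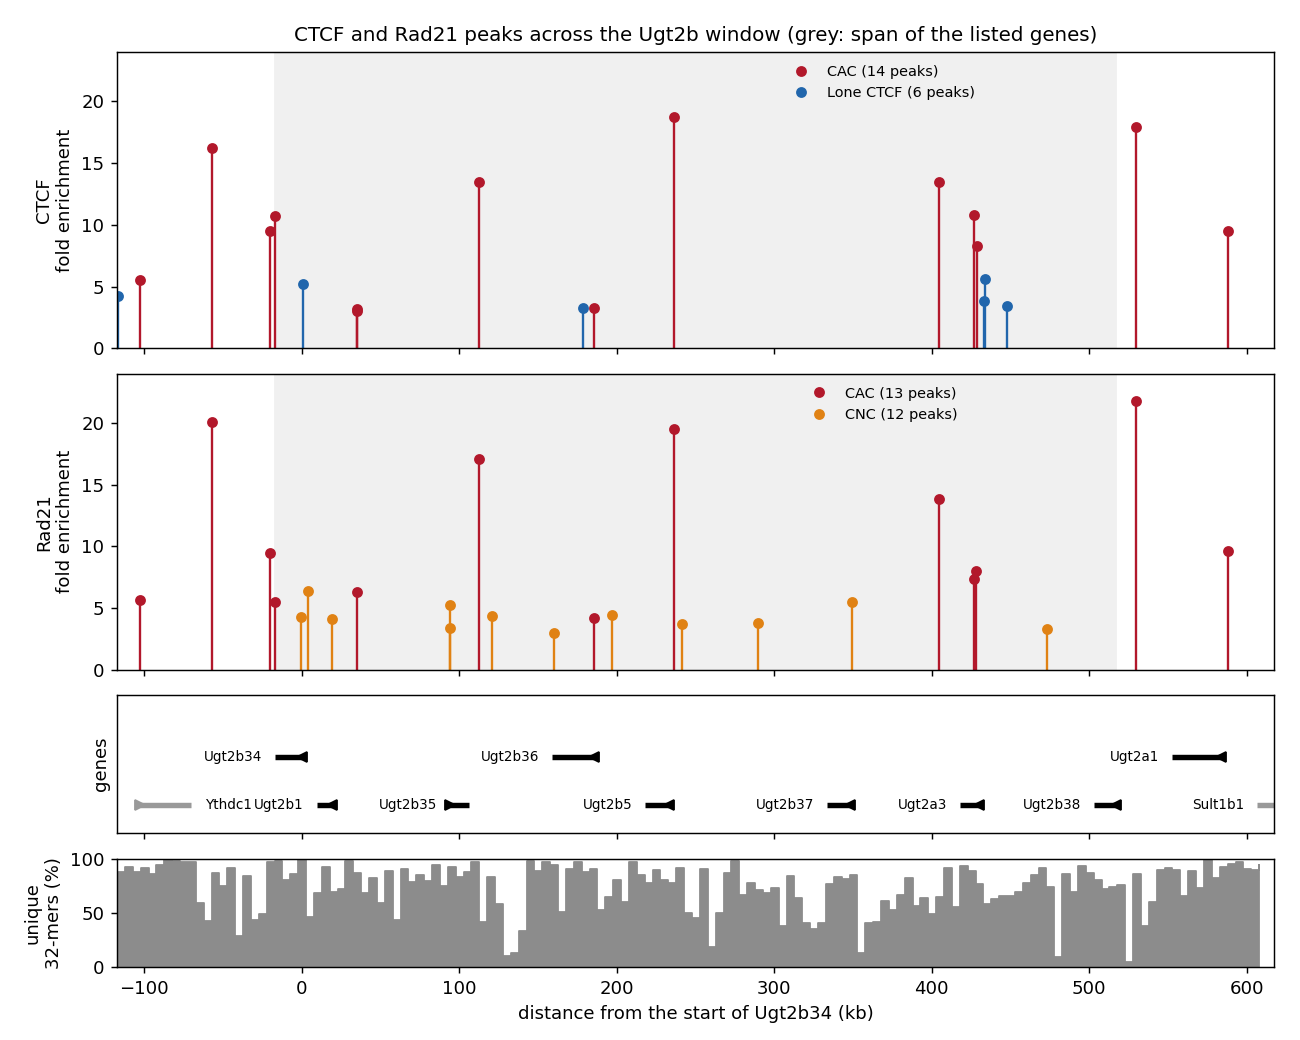
Peaks of the Ugt2b window by distance from the start of Ugt2b34 in kb, drawn as for the Ugt1a window (fold enrichment on the y axes). Tall red CAC stems stand between genes, the highest at 18.7 for CTCF and 21.8 for Rad21, and the 12 orange CNC stems lie between 2.99 and 6.39.

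Motif strand could be read for more CAC peaks at the looser threshold of 9.5 bits, reached by 5% of background windows. In the Ugt2b window 10 of 14 CAC peaks then had a motif, against 64.2% of all CAC peaks, with 6 on the plus and 4 on the minus strand. From left to right the first 4 were on the plus strand, up to the one downstream of Ugt2b35, and the next 3, from the one upstream of Ugt2b5 to the first of Ugt2a3, on the minus strand, so these faced each other across Ugt2b36 and Ugt2b5. The last 3 alternated. In the Ugt1a window 7 of 8 CAC peaks had a motif at this threshold, 4 on the plus and 3 on the minus strand, with no such block. A motif is a match of letters, and no loop was measured in these lists.

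At the starts, 8 of the 10 listed genes had a Rad21 peak within 5 kb and 5 had one over a start, against 63.1% and 38.7% of 22202 protein-coding genes. For CTCF the counts were 5 within 5 kb and 1 over a start, against 64.6% and 38.6%. With a minimum −log10 q of 10, 4 of the 10 listed genes had a Rad21 peak and 3 a CTCF peak within 5 kb, against 53.6% and 58.6% of protein-coding genes. Of 11 other Ugt genes, 9 had Rad21 and 2 CTCF within 5 kb, and 4 and 0 over a start. The nearest Rad21 peaks of Ugt1a6a, Ugt1a6b, Ugt1a7c, Ugt1a8, Ugt3a1 and Ugt3a2 had a −log10 q of 3.27 to 8.9. Those of Ugt2b35, Ugt2a1 and Ugt2a3 had 15 to 49.7. Ugt1a6a and Ugt1a6b were counted through the same nearest peak. Ugt3a1 and Ugt3a2, which use other UDP-sugars and lie on chromosome 15, both had a CNC peak over a start, with 3.82 and 4.48. Ugt8a, which makes galactosylceramide for myelin, had its nearest CTCF peak 72.9 kb and its nearest Rad21 peak 89.0 kb away.

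The genes that supply or reverse the reaction were also looked up. Ugp2 and Ugdh make UDP-glucose and UDP-glucuronic acid, Slc35d1 transports UDP-sugars into the endoplasmic reticulum, and Gusb removes glucuronic acid. All 4 had a CTCF peak over a start and 3 a Rad21 peak over a start, against 38.6% and 38.7% of protein-coding genes, with Gusb's Rad21 peak 40 bp away, and all were CAC. No difference from the Ugt genes was tested. Their Rad21 fold enrichments were 4.69, 9.66, 4.41 and 1.91.

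**Figure D5:**
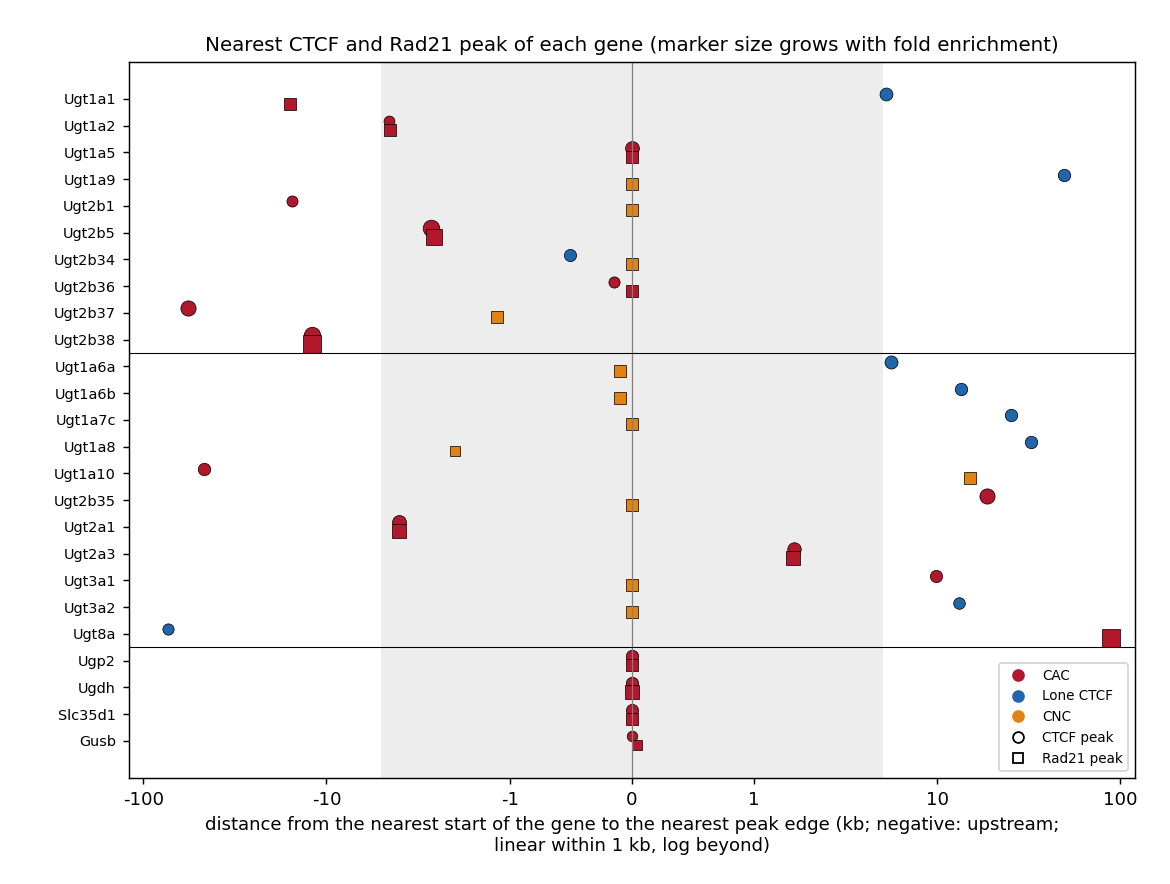
Distance in kb from a start of each gene to the edge of its nearest CTCF peak (circles) and Rad21 peak (squares), linear within 1 kb and logarithmic beyond, for the 10 listed genes (top), 11 other Ugt genes (middle) and 4 supply genes (bottom). Colours give the class and marker size the fold enrichment, and the grey band marks 5 kb. A CTCF circle lies over a start for 1 of the 10 listed genes, 0 of the 11 other Ugt genes and all 4 supply genes.

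Summits of CNC peaks lay within 1 kb of a protein-coding start for 5 of 15 in the Ugt1a window and 4 of 12 in the Ugt2b window, 33.3% each, against 12.8% of all CNC peaks. Motifs of liver factors were searched within 100 bp of the CNC summits on both strands. The HNF1 palindrome, with half-sites GTTAAT and ATTAAC separated by 1 base and up to 2 mismatches, was found in 0 of 15 and 1 of 12 peaks, against 2.18% of all CNC peaks. The HNF4 motif CAAAGTCCA, with up to 1 mismatch, was found in 2 and 1, against 13.1%. The 2 peaks of the Ugt1a window lay outside the span of the listed genes, in a Usp40 exon and upstream of Usp40. The C/EBP motif, TTGC and AA separated by any 2 bases, was found in 2 and 4, against 12.9%. Of the 2 in the Ugt1a window, 1 lay in a Usp40 intron, outside the span, and the other inside it. The C/EBP matches included the peak over the start of Ugt2b1, and the peak between Ugt2b5 and Ugt2b37 at chr5:87625506-87625700 held both the HNF1 and a C/EBP match. The latter peak and another with a C/EBP match, chr5:87532802-87533029, were copies of 1 repeated sequence, with 93% identity over 200 aligned bases, and the HNF1 match and the C/EBP matches lay in the aligned part. This sequence had 28 and 31 copies in the window, counted from the one and the other peak, and 43.6% and 58.8% of positions under the peaks were unique at 32 bases. Such small counts allow no order between the windows or against the list.

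The following lines show the starts of 4 Ugt2b genes that are more alike than those of the other Ugt2b genes, because only 1 of them had a Rad21 peak over it. Each gives mm9 sequence from 100 bases before the annotated start, with the first 20 transcribed bases in capitals, on the minus strand.
Ugt2b36, chr5:87521561-87521680: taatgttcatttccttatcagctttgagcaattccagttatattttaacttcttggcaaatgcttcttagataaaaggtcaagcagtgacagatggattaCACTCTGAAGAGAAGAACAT
Ugt2b5, chr5:87569346-87569465: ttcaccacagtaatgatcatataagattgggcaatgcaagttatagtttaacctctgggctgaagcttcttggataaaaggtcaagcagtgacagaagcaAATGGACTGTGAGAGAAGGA
Ugt2b37, chr5:87683810-87683929: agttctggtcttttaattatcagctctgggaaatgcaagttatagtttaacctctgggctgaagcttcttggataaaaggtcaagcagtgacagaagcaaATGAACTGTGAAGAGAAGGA
Ugt2b38, chr5:87853209-87853328: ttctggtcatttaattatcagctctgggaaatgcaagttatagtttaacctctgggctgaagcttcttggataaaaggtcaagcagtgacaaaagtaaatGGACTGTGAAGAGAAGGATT
Ugt2b37 and Ugt2b38 differed by 8 edits in 120 bases and Ugt2b5 differed from each by 19, while Ugt2b36 was 28 edits from Ugt2b38, 31 from Ugt2b37 and 37 from Ugt2b5. In these 120 bases 94.2% of positions were unique at 32 bases for Ugt2b36, 65.8% for Ugt2b5, 49.2% for Ugt2b37 and 55% for Ugt2b38. Only Ugt2b36 of the 4 had a Rad21 peak over its start, whereas Ugt2b1, Ugt2b34 and Ugt2b35, all with peaks over their starts, had 100%. The starts of Ugt1a1 and Ugt1a2 also had 100%, without a Rad21 peak over them. In the 2 kb centred on the start the order of these Ugt2b genes was another only in that Ugt2b1 fell below Ugt2b37. The share there was 73.9% for Ugt2b1, 93.2% for Ugt2b36, 93.9% for Ugt2b35 and 98.3% for Ugt2b34, all with a peak over the start. It was 75.7% for Ugt2b37, 62.0% for Ugt2b5 and 39.3% for Ugt2b38, all without a peak over the start. Among these 3, Ugt2b37 had a Rad21 peak just outside these 2 kb, 1.17 kb from the start, and Ugt2b5 one at 2.58 kb. The part of unique mapping in these missing peaks was not tested.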

How the data were processed

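The libraries were made from sonicated chromatin of liver nuclei. Bowtie2 was used by the authors to align reads to mm9, reads with more than 1 location were dropped, and MACS2 called peaks on all CTCF or all Rad21 libraries together. Blacklisted peaks and those resting on duplicate reads were removed. The deposited columns are, per peak, a ratio (the summit's fold enrichment against local background), the −log10 of p, the −log10 of q, a rounded score equal to the last times 10, and the summit offset. The lists hold no read totals, and library depth and read length were not used here.

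The summit pileup and local background were recovered from the fold enrichment and p-value with MACS2's formulas, with a pseudocount of 1. Pileups came out whole within 0.05 for 99.99% of CTCF and 100% of Rad21 peaks. The lowest background was 6.28 and 5.03 fragments. Pileup intervals are exact Poisson and intervals of shares Wilson, at the 95% level. They cover counting error only. The motif matrix was learned from 1000 peaks on even-numbered autosomes, of which 1 was left out, within 50 bp of the summit, and its thresholds were set on 66687 windows 1000 bp from summits. Copies of sites were found with blastn 2.17.0 from 201 bases around each summit. Unique positions are those whose 32-base sequence occurs once in mm9 on both strands. Genes are GENCODE M1 on the same build. Fisher's exact test (scipy 1.17.1) compared the windows, with Benjamini-Hochberg adjustment over 3 shares. Steps were tested on simulated data. Alternatives were other thresholds, windows, overlap rules and k-mer lengths.

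The members and lists were chosen with earlier results of these data known. By the naming rule the text gives the listed and fixed genes, the peaks inside the span of the listed genes, CAC peaks with a motif, the strongest peak of each list in each window and the CAC peaks next to the span. Other genes that are named only locate a peak. No column of a single library was left unused.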

Additional observations from a re-analysis of the deposited data

How the results depend on the processing

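No paired analysis was possible because the lists pool the libraries of each antibody and hold no column of a single library. Leaving out a library was not possible for the same reason. With −log10 q of at least 10, Rad21 peaks of the Ugt1a window fell from 23 to 7 and the CNC count from 15 to 1, and in the Ugt2b window CTCF peaks fell from 20 to 13 and the CNC count from 12 to 6. Of the CNC peaks of the whole lists, 0 and 5 passed, and the 1 other in each window was a CAC Rad21 peak whose CTCF partners did not. With a fold enrichment of at least 5, the Ugt1a window had 8 CTCF peaks, 4 Rad21 peaks, 4 CAC and 0 CNC, and the Ugt2b window 13 CTCF peaks, 15 Rad21 peaks and 4 CNC, 3 of them CNC before. The difference in CNC share, Ugt1a minus Ugt2b, turned from 17.2 to -21 and -26.7 percentage points under these thresholds (Fisher's exact test, adjusted p = 0.625 and 0.53). With a 50 kb extension, 15 Rad21 peaks and 4 CAC were left in the Ugt1a window. At the motif threshold of 5% background, 11 CTCF peaks of the Ugt1a and 14 of the Ugt2b window had a motif and the difference in share turned from 17.5 to -1.25 points (Fisher's exact test, adjusted p = 1). Unique shares with 24-base sequences were 72.9% and 64.5%, against 78.0% and 73.4% with 32. Chosen after seeing the data, a peak over the start or within 1 kb of it was asked for. Rad21 then counted at 5 listed genes under either rule and CTCF at 1 and 3, and with −log10 q of at least 10 Rad21 counted at 4 and CTCF at 3. Other alternatives kept the sign of the differences, Ugt1a minus Ugt2b, but moved their size. In percentage points, that in CAC share went from -20 to -11.2 with summits within 100 bp and to -34.6 with a fold enrichment of at least 5. That in CNC share was 9.22 when 50% of the peak had to overlap and 21.2 with the 50 kb extension. That in motif share was 5 with the motif within 50 bp and 31.5 with −log10 q of at least 10. No share difference passed the threshold under any alternative, and adjusted p ranged over alternatives from 0.274 to 1. Depth, not used here, limits what a missing peak means.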
